A study of Arabidopsis thaliana with 12 samples.

Results

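The 24 h cold response of wild-type Arabidopsis roots is the difference between the 3 arrays of Col-0 roots at 4 °C and the 3 arrays of Col-0 roots at 23 °C, 6 of the 12 arrays of the study. It is described over the 13356 genes that a probe-to-gene table names. Of these, 1557 carry a symbol and 11799 only their locus name. The plants of both groups were Col-0, the wild type, and were 4 weeks old. They were raised hydroponically in short days, lit for 8 h and dark for 16 h. One group spent 24 h at 4 °C before harvest, and the other stayed at 23 °C. The other 6 arrays hold roots of ozs3 (overly zinc sensitive 3), a mutant in the Col-0 background, under the same 2 temperatures. Whole roots were harvested, so fewer cells of a type and less RNA per cell cannot be told apart. The labels call the samples biological replicates and do not say whether plants were pooled.

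In cold, plants adjust membranes, proteins and metabolism over hours to days, a process called acclimation. Small hydrophilic proteins (late embryogenesis abundant proteins and dehydrins) protect membranes and enzymes, soluble sugars accumulate, and membrane lipids are remodelled. Low temperature also slows growth, stiffens cell walls and lowers the speed of enzymes, while RNA strands pair more tightly. Roots respond with a set of genes that overlaps only in part with that of leaves.

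Levels are log2 values made by RMA, a method that corrects background, normalizes arrays and sums the probes of a probe set, so a difference of 1 is a 2-fold change. Levels of different genes are not compared, because each probe set binds with its own strength. Values at or below 5 are near the background and are called dim. Differences are 4 °C minus 23 °C, with the standard error (SE) of the limma model, and a gene was called at an adjusted p under 0.05. The Col-0 arrays correlated at r between 0.994 and 0.997 within a temperature and between 0.963 and 0.969 across temperatures, over probe sets. The root hair genes EXPA7, EXPA18 and XTH26 had values between 7.12 and 9.64 on all 6 arrays. The shoot genes SBPASE and PRK, both of carbon fixation, were at or below 4.72, and RCA, the activase of Rubisco, was at 6.46, 6.85 and 6.66 at 4 °C and at 7.04, 7.78 and 7.03 at 23 °C. Of the 3 root hair markers 2 fell and of the 3 shoot markers 1 (RCA) fell, and their part in the other results was not tested.

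Of the 13356 genes, 5482 were called, a share of 41.0%. In the cold 2420 were higher (18.1%) and 3062 were lower (22.9%). This excess of lower genes depended on the centring: with each array shifted to 1 common median, 2784 were higher and 2764 lower. Most changes were small, with a median size of 0.59 among called genes. A change of at least 2-fold was called upward for 442 genes (3.31%) and downward for 644 (4.82%). A change of at least 4-fold was called upward for 95 genes (0.711%) and downward for 51 (0.382%). Of the genes lower by at least 2-fold, 49 had a dim mean at 4 °C, and of those higher, 26 had a dim mean at 23 °C. Near the background the measured size of a fall or a rise is limited. This holds also for genes with a dim mean that are named below. Tested against a 2-fold change itself, far fewer probe sets passed, as given in the closing section. The median difference over the named genes was -0.01. Over all 22746 probe sets, named or not, the share called was 43.9%, with 20.4% higher and 23.5% lower. At least 2-fold changes made up 4.04% higher and 4.72% lower, and at least 4-fold changes 0.849% and 0.422%.

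**Figure D1:**
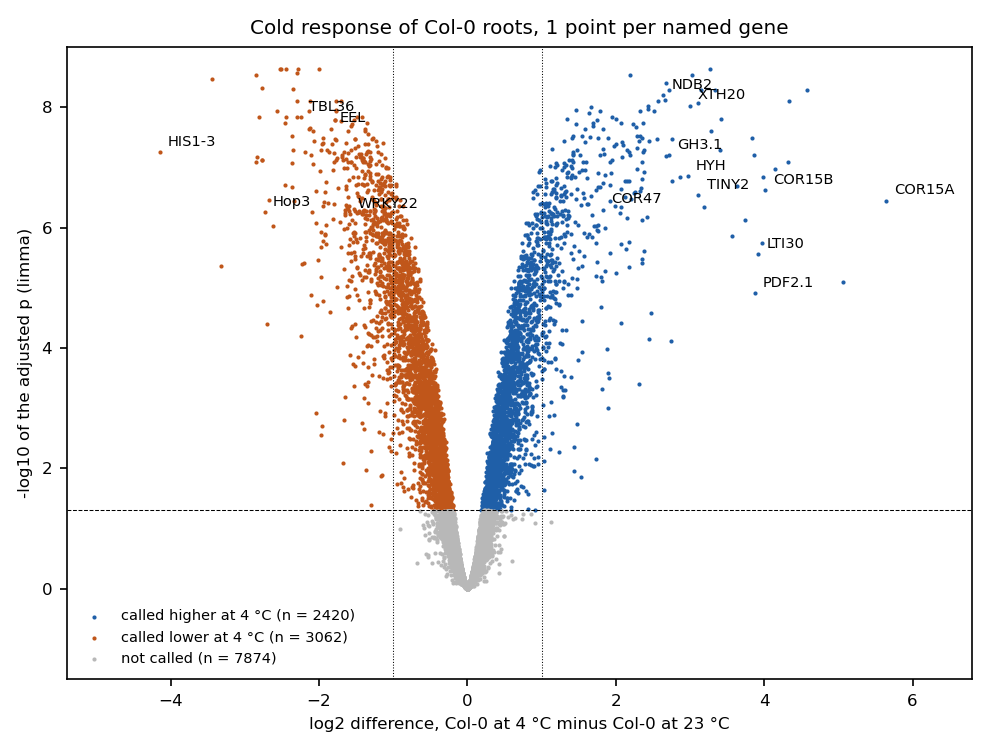
Volcano plot of the cold response, with the log2 difference between Col-0 at 4 °C and at 23 °C on the x axis, the negative log10 of the limma adjusted p on the y axis and 1 point per named gene (blue called higher, orange called lower, grey not called). The dotted lines mark 2-fold and the dashed line the threshold of 0.05. The outermost points are COR15A at 5.64 and HIS1-3 at -4.15, the second with dim cold values.

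Family names of genes that carry only a locus name come from general knowledge of the Arabidopsis genome, since the annotation used here gives no function for them. The 15 largest called rises and the 15 largest called falls were taken among genes whose cold and warm arrays did not overlap. COR15A, a protein that protects chloroplast membranes during freezing, stood at 10.74, 10.41 and 10.89 at 4 °C and at 5.23, 4.64 and 5.25 at 23 °C. That is 49.7-fold higher (difference 5.64 ± 0.46 SE, limma adjusted p = 3.57e-07). Its neighbour COR15B rose by 4.01 ± 0.31. LTI30, a dehydrin, was at 14.66, 14.66 and 14.62 at 4 °C and at 10.91, 10.04 and 11.23 at 23 °C (15.1-fold, adjusted p = 2.74e-06). The cold arrays of LTI30 lay almost on top of each other near the upper end of the scale, and the spread was all on the warm side.

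The other rises among the 15 largest fell into a few kinds. AT4G30650, of a small membrane protein family induced by low temperature and salt, rose by 4.14 ± 0.29, and COR27, a cold-regulated gene tied to the circadian clock, by 3.86 ± 0.25. PDF2.1, a plant defensin, stood at 12.87, 13.06 and 13.13 at 4 °C and at 8.65, 9.24 and 9.56 at 23 °C (14.6-fold, adjusted p = 1.22e-05). AT5G15950, an S-adenosylmethionine decarboxylase of polyamine synthesis, rose by 3.64 ± 0.28. The glycosyltransferases AT2G22590 and AT2G16890 rose by 4.58 ± 0.21 and 3.98 ± 0.29. AT5G62360 and AT3G17130, of the family that inhibits pectin methylesterases in the wall, rose by 4.34 ± 0.21 and 4.32 ± 0.29. AT1G68500, AT5G20790, AT1G11210 and AT1G16850, with no role given here, rose by between 3.74 and 5.06.

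HIS1-3, a linker histone known from drought, led the falls with 4.09, 4.43 and 4.51 at 4 °C and 7.94, 9.04 and 8.48 at 23 °C (at least 17.7-fold lower, difference -4.15 ± 0.27, adjusted p = 5.58e-08). All its cold values were dim, so the measured fold is a lower bound. Hop3, a stress-induced co-chaperone, fell to 5.28, 5.37 and 5.02 at 4 °C, against 7.39, 8.01 and 8.46 at 23 °C (adjusted p = 5.53e-07). AT5G61590, the ERF factor DEWAX that represses wax synthesis, fell by 2.56 ± 0.13. AT2G41730 fell by 2.69 ± 0.37, with 7.56, 6.95 and 7.41 at 4 °C and 10.12, 8.89 and 10.98 at 23 °C, so its warm arrays lay far apart. Its probe set is one that can also bind other transcripts.

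**Figure D2:**
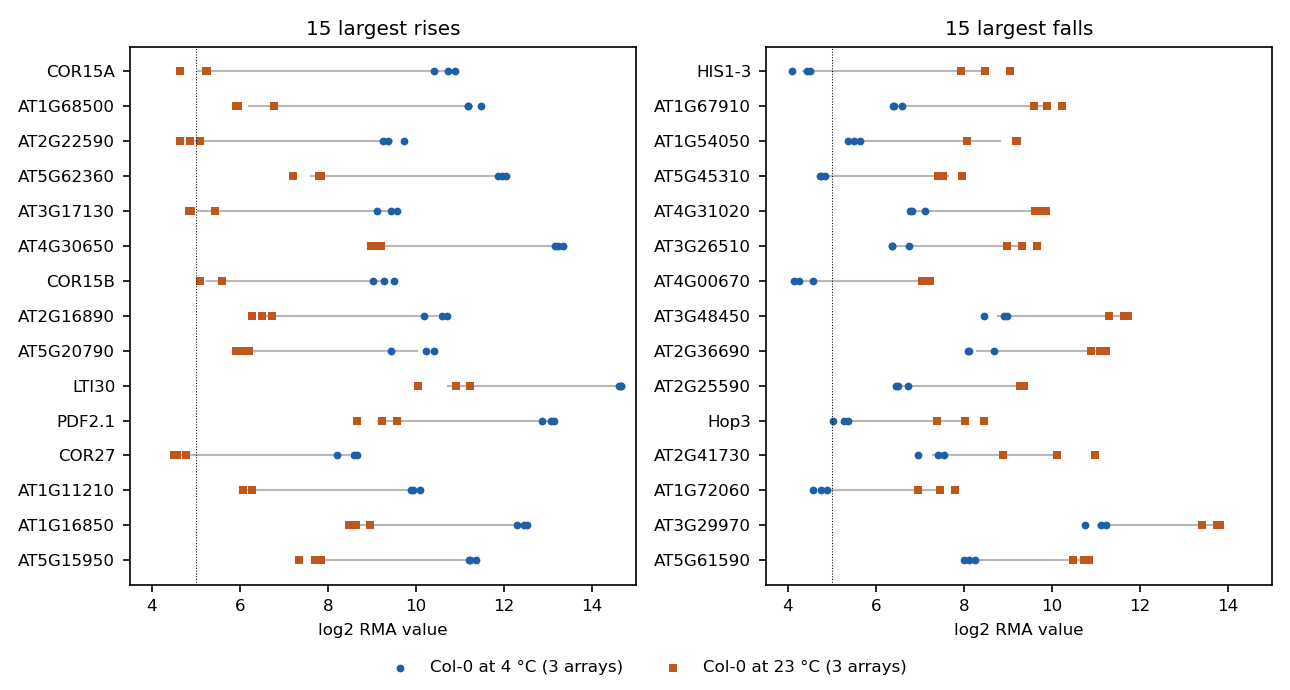
Log2 RMA values of the 15 genes with the largest rise (left) and the 15 with the largest fall (right), 1 row per gene, with blue circles for the 3 Col-0 arrays at 4 °C and orange squares for the 3 at 23 °C. The grey line joins the group means and the dotted line marks the dim limit of 5. Genes were chosen for groups that do not overlap. COR27 rises out of the dim range and HIS1-3 falls into it.

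Late embryogenesis abundant proteins and dehydrins were the list with the widest spread. Of 16 named members 8 rose and 1 fell, beside 18.1% higher and 22.9% lower among all named genes. Of the rises, 7 were at least 2-fold. Beside COR15A, COR15B and LTI30, LEA4-5 rose by 2.86 ± 0.21, AT2G23120 by 2.45 ± 0.15, AT4G38410 by 2.01 ± 0.11 and COR47 by 1.82 ± 0.15. COR47, a dehydrin, was at 14.87, 14.79 and 14.73 at 4 °C and 12.93, 12.98 and 13.01 at 23 °C. AT1G54410 (HIRD11), a small dehydrin, rose by only 0.29 ± 0.08. The 7 members not called lay between -0.04 and 0.14, and 6 of the list were dim at both temperatures. Of 5 small low temperature membrane proteins, AT4G30650 and AT4G30660 (1.19 ± 0.11) rose.

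Core hypoxia genes, which plants switch on when oxygen runs short, were the largest list to move one way. Of 50 loci on the list 25 were named, and 22 of them fell while 1 rose, with a median of -1.19. Over all named genes 22.9% fell and the median was -0.01. The lists were drawn up with earlier results of these data known, so such counts describe these roots and are no test. AT3G29970, a B12D-type protein, had 10.76, 11.12 and 11.23 at 4 °C and 13.76, 13.40 and 13.82 at 23 °C (difference -2.62 ± 0.24, adjusted p = 9.56e-07). AT4G27450 had 11.75, 12.20 and 11.98 at 4 °C and 14.13, 14.15 and 14.21 at 23 °C (-2.18 ± 0.14, adjusted p = 5.63e-08). Both were bright on every array and the groups stood well apart.

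The hypoxia genes that fell do different things. AT3G03270, a universal stress protein, fell by 1.89 ± 0.12, AT5G42200, a RING-type ubiquitin ligase, fell by 2.02 ± 0.21, and AT2G15880, an extensin-like wall protein, fell by 2.04 ± 0.16. CML38, a calmodulin-like calcium sensor, fell to 10.53, 11.14 and 10.50 at 4 °C, against 11.84, 11.99 and 11.90 at 23 °C (adjusted p = 2.90e-04). AT3G10040 (HRA1), which restrains the hypoxia response, fell by 1.30 ± 0.20 as well. AT5G47060 alone rose (0.56 ± 0.14). AT5G45960 (0.00), dim on every array, and AT5G66985 (-0.33) were not called. AT5G66985 was called with the replicate number as a block (limma adjusted p = 0.0244) and under several other alternatives. Its adjusted p was 0.0149 without replicate 2 at 4 °C and 0.0446 with only the 6 Col-0 arrays. In ozs3 roots the list's median was -0.59, with 16 members lower and 2 higher, and no share over all named genes in ozs3 is given here. The difference between the lists' medians in Col-0 and ozs3 was not tested.

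Of 10 named small heat shock proteins, which hold unfolding proteins in solution, 9 fell, against 22.9% lower among all named genes. The median of the list was -1.95. AT1G54050 stood at 5.64, 5.50 and 5.36 at 4 °C and at 8.06, 9.21 and 9.19 at 23 °C (-3.32 ± 0.36, adjusted p = 4.37e-06). AT1G52560 fell by 2.24 ± 0.32, AT5G51440 fell by 2.11 ± 0.26 and AT1G53540 fell by 2.04 ± 0.42. AT5G47600 was not called (-0.19).

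Of 19 HSP70 and HSP90 loci only 2 were named, and both rose. AT3G09440 had 13.23, 13.02 and 13.56 at 4 °C and 10.86, 10.91 and 11.29 at 23 °C (2.25 ± 0.18, adjusted p = 2.63e-07), and Hsp70-2 had 9.40, 9.10 and 9.68 at 4 °C and 7.69, 7.50 and 7.77 at 23 °C (1.74 ± 0.13). Among 11 co-chaperones 6 rose and 3 fell, beside 18.1% higher and 22.9% lower among all named genes, so the share of falls was near the latter. The HOP adaptors, which pass client proteins between HSP70 and HSP90, went both ways: Hop2 rose by 0.81 ± 0.08 and Hop1 by 0.50 ± 0.08, while Hop3 fell by 2.73 ± 0.23. SGT1A, an HSP90 partner of disease resistance and auxin signalling, fell by 1.53 ± 0.15.

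**Figure D3:**
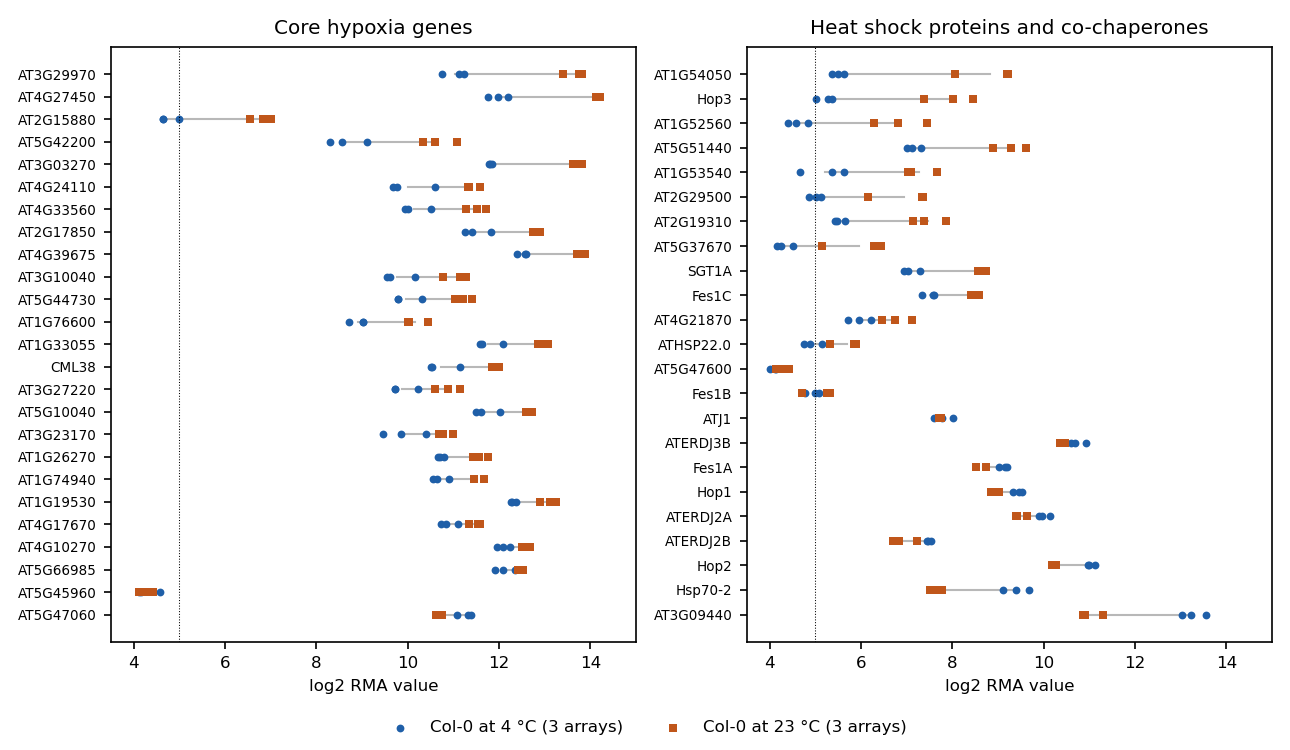
Log2 RMA values of all named core hypoxia genes (left) and of all named heat shock proteins and co-chaperones (right), sorted by difference, with blue circles for the 3 Col-0 arrays at 4 °C and orange squares for the 3 at 23 °C. Nearly all hypoxia genes lie left of their 23 °C values in the cold, the small heat shock proteins fall towards the dim limit of 5, and AT3G09440 and Hsp70-2 at the bottom right lie above their 23 °C values.

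Transcription factor families moved in both directions. Counts of these and the later lists stand beside 18.1% higher and 22.9% lower among all named genes. Of 12 named AP2/ERF factors 4 rose and 3 fell. TINY2, of the DREB branch that binds cold- and drought-responsive promoters, stood at 8.29, 8.21 and 9.14 at 4 °C and at 5.54, 5.64 and 5.13 at 23 °C (3.11 ± 0.25, adjusted p = 2.87e-07), and its relative tny (TINY) rose by 1.40 ± 0.14. SMZ, a repressor of flowering, rose by 1.23 ± 0.16. AT3G60490, another ERF-family gene, fell by 2.46 ± 0.19. The cold arrays of TINY2 differed by nearly 1 unit among themselves and still lay clear of the warm arrays.

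Of 24 bZIP factors 7 rose and 6 fell. HYH, the HY5 homolog that acts in light signalling, had 9.43, 9.17 and 9.07 at 4 °C and 6.26, 6.22 and 6.29 at 23 °C (7.83-fold, adjusted p = 1.41e-07). bZIP44 rose by 1.11 ± 0.10. EEL, which acts on late embryogenesis genes in seeds, fell to 5.67, 5.73 and 5.76 at 4 °C, against 7.44, 7.77 and 7.45 at 23 °C, and BZIP24, a regulator of salt responses, fell by 0.89 ± 0.15. Of 7 WRKY factors 2 rose and 3 fell. The calls of WRKY47 (-0.25) and WRKY20 (0.23) ended under several alternatives. WRKY22 fell by 1.59 ± 0.14 and WRKY53 fell by 1.00 ± 0.13, both linked to defence, and WRKY6, which acts in phosphate and senescence responses, rose by 0.72 ± 0.14.

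Of 21 bHLH factors 8 fell and 4 rose. The iron regulators bHLH121 (-1.51 ± 0.09) and ILR3 (-1.04 ± 0.08) were both lower, as were the jasmonate factors MYC3 (-0.81 ± 0.15) and MYC4 (-0.76 ± 0.17). ILR3 was at 10.13, 10.16 and 10.24 at 4 °C and 11.29, 11.20 and 11.17 at 23 °C, and MYC3 at 8.27, 8.28 and 8.34 at 4 °C and 9.01, 9.14 and 9.17 at 23 °C. NAI1, which controls the ER bodies of the root, rose by 1.03 ± 0.17. Of 41 MADS box genes 6 fell and 1 rose, led by AGL79 (-1.62 ± 0.15), and 27 were dim at both temperatures. Outside these lists, TCP15, of a growth-controlling family, rose by 2.08 ± 0.13 and PTL, a trihelix factor, by 1.75 ± 0.18, both chosen after their values were seen.

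Of 20 auxin genes 3 rose and 3 fell. GH3.1, of the family of enzymes that link amino acids to auxin or jasmonate, stood at 8.07, 7.91 and 7.63 at 4 °C and at 5.23, 5.0 and 5.25 at 23 °C (6.56-fold, adjusted p = 6.26e-08), whereas GH3.17 fell by 0.94 ± 0.09. WAG2, a kinase of the PINOID group that steers auxin transport, rose by 1.40 ± 0.17, and SKP2A, an F-box protein of cell division, fell by 1.20 ± 0.14. Of 6 cytokinin response regulators 0 were called by limma, 0 had an unadjusted p under 0.05, and all 6 were dim at both temperatures. Of 4 jasmonate oxidases, which inactivate the hormone, AT2G38240 rose by 3.19 ± 0.27 and AT5G05600 by 2.37 ± 0.24, and the other two were dim.

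Cell wall genes rose more often than they fell in several lists. Of 29 expansins and xyloglucan enzymes (XTH), which loosen and rejoin the wall, 12 rose and 7 fell, with 4 falling without replicate 3 at 23 °C. Over all named genes 18.1% rose and 22.9% fell, and the share of falls among the 29 was near the latter. XTH20 stood at 12.49, 12.52 and 12.79 at 4 °C and at 9.86, 9.58 and 9.37 at 23 °C (7.98-fold, adjusted p = 9.42e-09). All 3 expansin-like A genes rose, EXLA3 by 2.75 ± 0.20, EXLA2 by 2.66 ± 0.13 and EXLA1 by 2.16 ± 0.14, and EXLB1 rose by 1.20 ± 0.14. The classical expansin EXPA4 fell to 9.56, 9.95 and 10.07 at 4 °C, against 11.15, 11.07 and 11.25 at 23 °C. Of the root hair genes in the list, EXPA18 fell by 0.92 ± 0.16 and XTH26 fell by 0.81 ± 0.26. The XTH26 call ended without replicate 1 or 3 at 23 °C or replicate 2 at 4 °C (adjusted p = 0.0609, 0.0665 and 0.110). EXPA7 was not called (-0.10 ± 0.18).

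Lists of wall polymer synthesis and turnover held more rises than falls, beside 18.1% higher and 22.9% lower among all named genes. Of the list of cellulose synthase-like genes and COBRA, with 9 named members, 6 rose and 3 were not called. COB, an anchored protein that orients cellulose, was at 12.18, 12.06 and 12.14 at 4 °C and 11.14, 10.97 and 11.02 at 23 °C (1.08 ± 0.09, adjusted p = 4.31e-07). CSLC04, which makes the xyloglucan backbone, rose by 1.13 ± 0.09 and CSLD2, which acts in root hairs, by 0.70 ± 0.09. Of 24 trichome birefringence-like genes, which acetylate wall polymers, 7 rose and 3 fell, with TBL45 at 1.45 ± 0.11 and TBL36 at -2.24 ± 0.12. Of 15 GH9 cellulases 6 rose, all by less than 2-fold, and GH9B13 fell by 1.41 ± 0.22. LAC16, a laccase, rose by 2.32 ± 0.14 and was chosen after its value was seen.

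Of 55 class III peroxidases, which use hydrogen peroxide in the wall, 11 rose and 16 fell, near the 18.1% higher and 22.9% lower of all named genes. AT1G34510 fell to 4.86, 4.38 and 5.14 at 4 °C, against 7.08, 6.96 and 7.35 at 23 °C, and AT5G06730 rose to 8.07, 8.54 and 8.79 at 4 °C, against 6.12, 6.70 and 6.8 at 23 °C. The neighbours AT5G64110 and AT5G64120 (PRX71) differed by -1.59 ± 0.16 and -2.03 ± 0.26, both called lower. Of 22 berberine bridge enzyme-like oxidases 5 rose and 6 fell, between -2.04 (AT5G44410) and 1.86 (AT1G30760). Of 13 germin-like proteins AT5G38910 rose most (2.47 ± 0.32) and AT5G38950 fell most (-1.49 ± 0.16).

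Inside the cell, 4 of 25 antioxidant enzymes rose and 8 fell. GR1, the cytosolic glutathione reductase, was at 11.71, 11.68 and 11.72 at 4 °C and 10.65, 10.50 and 10.76 at 23 °C (1.06 ± 0.10, adjusted p = 1.42e-06). SAPX, an organellar ascorbate peroxidase, rose by 0.94 ± 0.11, while SRX, sulfiredoxin, fell by 1.49 ± 0.13. The glutathione transferase GSTU25 stood at 7.70, 8.31 and 7.55 at 4 °C and at 5.79, 5.04 and 7.05 at 23 °C (1.89 ± 0.38, adjusted p = 9.97e-04). Replicate 3 at 23 °C lay near the cold arrays of that gene. GSTU22 rose by 1.47 ± 0.32, with its highest warm value, 8.64, in the same replicate, and GSTU28 fell by 1.30 ± 0.18.

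In respiration, 8 of 18 genes rose and 3 fell, or 1 fell without replicate 3 of either temperature. NDB2, a mitochondrial dehydrogenase that takes up NAD(P)H from the cytosol and bypasses complex I, was at 10.86, 10.76 and 10.86 at 4 °C and 8.20, 7.97 and 8.4 at 23 °C (6.22-fold, adjusted p = 6.27e-09). NDC1 rose by 0.81 ± 0.10. Of 10 genes on a list drawn up for leucine and lysine breakdown 6 fell and 1 rose, against 22.9% lower and 18.1% higher among all named genes. The list also took in genes of other amino acids. DELTA-OAT, which acts on ornithine, was among the falls, and ALDH6B2, which acts in valine breakdown, was the 1 rise. MCCA and MCCB, the subunits of methylcrotonyl-CoA carboxylase in leucine breakdown, fell by 1.48 ± 0.11 and 0.92 ± 0.13. Both subunits were lower on every cold array, with MCCA at 8.11, 8.26 and 7.99 at 4 °C and 9.43, 9.76 and 9.60 at 23 °C.

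Of 27 named sugar transporters 6 rose, near the 18.1% of all named genes, and 3 fell. AT1G19450, of the ERD6-like vacuolar group, was at 13.01, 12.90 and 13.30 at 4 °C and 10.88, 10.84 and 10.97 at 23 °C (4.52-fold, adjusted p = 1.70e-07). TMT1, which loads sugars into the vacuole, rose by 0.88 ± 0.11 and SWEET1 by 0.94 ± 0.13, and SFP1 fell by 1.14 ± 0.11. Of 16 starch and sugar phosphate enzymes 3 rose and 3 fell. AT3G55760 rose by 1.93 ± 0.13, and DPE1, which rearranges the glucans left by starch breakdown in plastids, fell by 1.34 ± 0.22. Among 30 transporters of the nitrate and peptide family 8 rose and 7 fell. The glucosinolate importers split, with GTR1 higher by 1.13 ± 0.12 and GTR2 at -0.38 ± 0.08.

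Genes of transcription and translation mostly changed by less than 2-fold. Of 12 RNA polymerase subunits 7 rose, all below 2-fold, against 18.1% higher among all named genes. The 7 included both large subunits of polymerase I, which makes ribosomal RNA: NRPA1 rose by 0.93 ± 0.08 and NRPA2 by 0.64 ± 0.09. NRPA1 was at 7.85, 8.05 and 7.94 at 4 °C and 6.90, 7.04 and 7.09 at 23 °C. Of 132 named cytosolic ribosomal proteins 31 rose and 14 fell, with a median of 0.09, against a median of -0.01 over all named genes. AT5G59240 rose most (1.38 ± 0.12) and AT5G39850 fell most (-1.23 ± 0.15). Ribosomal protein genes have close copies, so a probe set may also bind the transcripts of a relative. In ozs3 12 of the 132 rose and 28 fell, and this difference between the genotypes was not tested for the list. No share over all named genes in ozs3 is given beside these counts. The ozs3 array medians were 7.06, 7.05 and 6.99 at 4 °C and 7.20, 7.15 and 7.15 at 23 °C. Whether centring shifts the ozs3 counts was not tested.

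Of 26 chromatin genes 8 fell and 5 rose, near the 22.9% lower and 18.1% higher among all named genes. INO80, the motor of a nucleosome remodeller, stood at 7.36, 7.45 and 7.38 at 4 °C and at 8.37, 8.77 and 8.61 at 23 °C (-1.19 ± 0.09, adjusted p = 2.78e-07), and CHC1, a SWI/SNF subunit, fell by 0.81 ± 0.09. The histone gene HTB1 rose by 0.82 ± 0.09. Of 24 cytoskeleton genes 8 rose and 5 fell, and 5 rose without replicate 3 of either temperature. TUB9, a beta-tubulin, was at 11.79, 11.65 and 11.70 at 4 °C and 10.31, 10.40 and 10.19 at 23 °C. The SPIRAL1-like proteins, which bind microtubules, split, with SP1L2 (1.13 ± 0.18) and SP1L5 (0.78 ± 0.15) higher and SP1L4 (-1.23 ± 0.17) and SP1L3 (-0.81 ± 0.09) lower.

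Protein turnover was covered by a ubiquitin list and a protease list. Of 42 genes of ubiquitin conjugation and removal 17 rose and 10 fell, against 18.1% higher and 22.9% lower among all named genes. PUB19, a ubiquitin ligase of abscisic acid signalling, rose by 1.68 ± 0.16 and UBC22 fell by 1.05 ± 0.08. In the protease list, with 17 named members, 5 rose and 5 fell. Among them the cystatin CYS1 (1.18 ± 0.11) and the serpin SERPIN1 (1.15 ± 0.10), both inhibitors of cysteine proteases, rose. ALPHA-VPE, a vacuolar processing protease, fell by 0.92 ± 0.14. Of 32 defensins and small cysteine-rich or signalling peptides 5 rose and 5 fell. LCR69 stood at 13.44, 13.82 and 13.48 at 4 °C and at 11.04, 11.51 and 11.06 at 23 °C (5.20-fold). Of 23 calcium sensors and IQD proteins 3 rose and 7 fell, and of 21 exocyst and ESCRT genes, which serve secretion and vacuolar sorting, 3 rose and 8 fell, all by less than 2-fold.

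**Figure D4:**
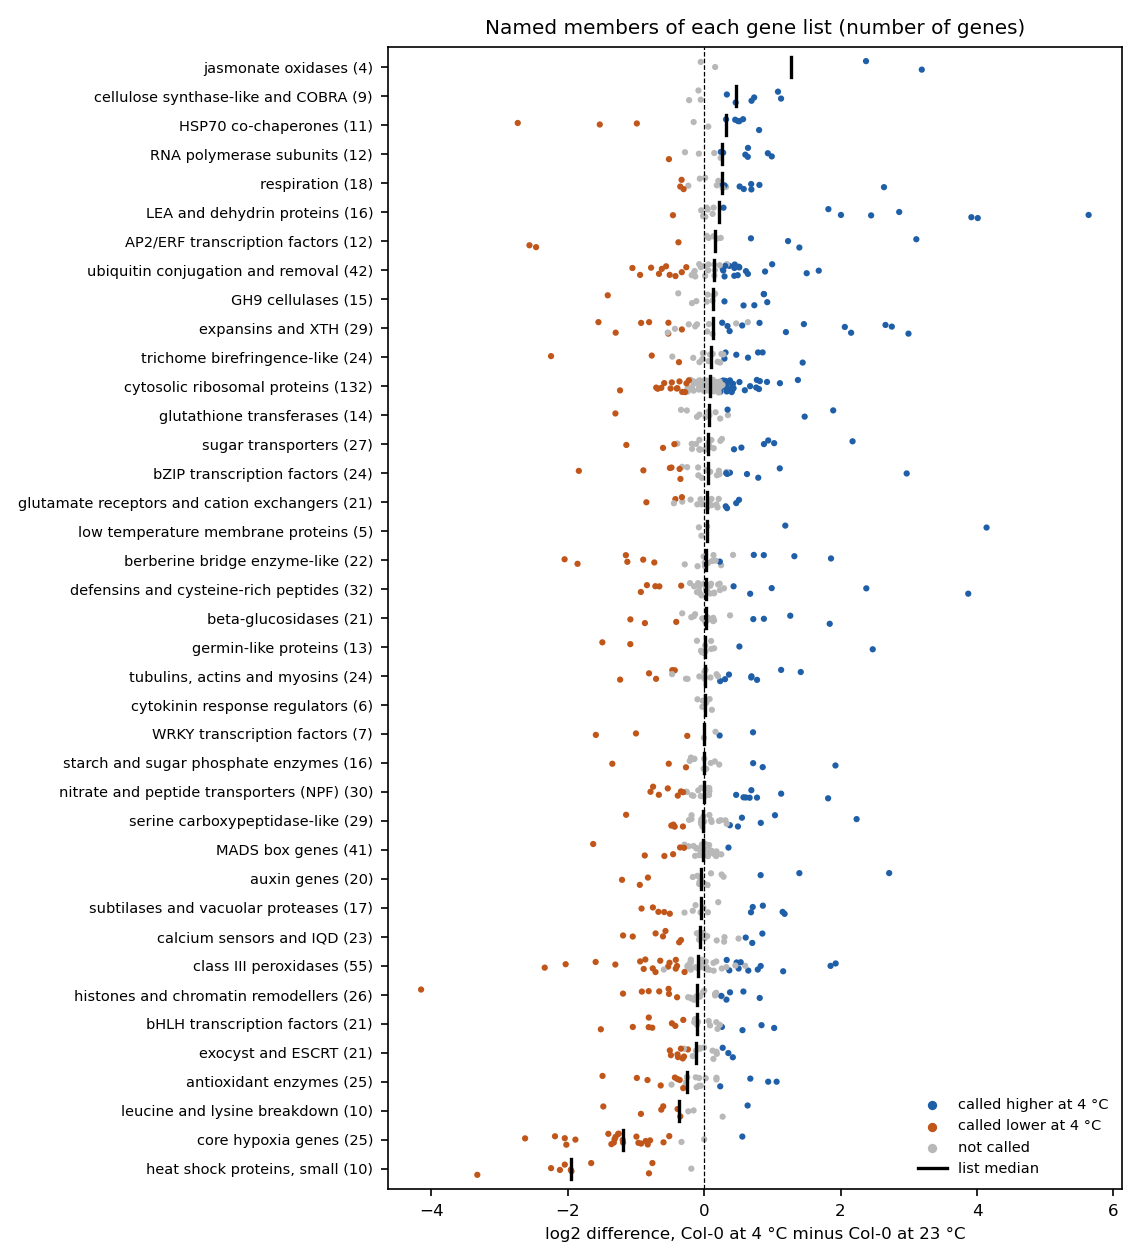
Log2 difference between Col-0 at 4 °C and at 23 °C for each named member of the gene lists with at least 3 named members, cell type markers left out, 1 row per list with its number of genes. Points are blue where called higher, orange where called lower and grey where not called, the black bar is the list median and the dashed line the median of all named genes. Small heat shock proteins and core hypoxia genes stand to the left with medians of -1.95 and -1.19, and most other lists straddle 0.

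In all, 911 genes were on 43 lists and 46.7% of them were called, against 41.0% of all named genes. Several genes outside the lists were picked by their values and are given as examples only. LPR1 and LPR2, ferroxidases that stop root growth when phosphate is low, rose by 2.67 ± 0.18 and 1.16 ± 0.14. LPR1 was dim at 23 °C, with 7.95, 7.50 and 7.38 at 4 °C and 4.88, 5.0 and 4.92 at 23 °C. UGT78D2, a flavonoid glucosyltransferase, rose by 3.03 ± 0.12, CHIL, a chalcone isomerase-like protein of flavonoid synthesis, by 2.45 ± 0.36, and the kinases WNK9 and WNK7 by 2.36 ± 0.13 and 1.31 ± 0.11. Among the lower genes, the kinase gene ATMPK13 fell by 2.23 ± 0.24, AKINBETA1, a subunit of the energy sensor SnRK1, fell by 1.51 ± 0.10, LCB2, a subunit of the first enzyme of sphingolipid synthesis, fell by 1.13 ± 0.10 and SIM, an inhibitor of cell division, fell by 1.1 ± 0.11.

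Genes next to each other on a chromosome were looked at in pairs, using only the order of genes. Of 5818 neighbouring pairs of named genes, both members changed at least 2-fold in 58, upward together in 15, downward together in 26 and in opposite directions in 17. Of all named genes 3.31% were higher and 4.82% lower by at least 2-fold, so some such pairs arise without any link. Over all pairs the differences of neighbours correlated at only r = 0.086, and whether neighbours changed together was not tested. The pairs that rose included COR15B with COR15A and EXLA3 with EXLA1. They also included the pectin methylesterase inhibitor family genes AT5G62350 (2.29 ± 0.14) and AT5G62360, and AT4G29690 (3.15 ± 0.14) with AT4G29700 (1.66 ± 0.10). AT4G30650, which rose by 4.14, has AT4G30660 on one side (1.19) and AT4G30640 on the other, which fell by 1.22. Neighbours of 1 family can share probe sequence, and this was not tested.

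Among the probe sets that stand for a named gene, the 5 with the highest mean over the 6 Col-0 arrays read COR47, described above, and 4 genes that fell by less than 2-fold. GAPC2, a cytosolic enzyme of glycolysis, was at 14.13, 14.14 and 14.14 at 4 °C and at 14.42, 14.32 and 14.46 at 23 °C (-0.26 ± 0.08, adjusted p = 0.0112), and that call ended with 1 common median for all arrays (adjusted p = 0.0514). PRXR1, a peroxidase, MT1C, a metallothionein, and AT4G33720, of the pathogenesis-related CAP family, changed by -0.29, -0.33 and -0.49.

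The same cold treatment was given to ozs3, with its own control arrays, and the difference of the responses was tested by the interaction of genotype and temperature. Of the 442 genes higher by at least 2-fold in Col-0, 426 were also called higher in ozs3, and of the 644 lower ones 600 were called lower. Since these genes were picked by the size of their change in Col-0, part of any gap to ozs3 can come from that choice. The response itself differed for 72 of the 442 and 132 of the 644, against 9.43% of all named genes and 10.1% of all probe sets. AT2G41730 fell by 2.69 in Col-0 and rose by 2.62 in ozs3 (interaction -5.31, adjusted p = 1.45e-04), and AT3G48450 fell by 2.77 in Col-0 and stood at 0.09 in ozs3 (interaction -2.86, adjusted p = 1.43e-04). COR15A, HIS1-3, LTI30 and NDB2 were not called for a difference between genotypes (adjusted p between 0.0954 and 0.855), which does not show that their responses were alike.

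**Figure D5:**
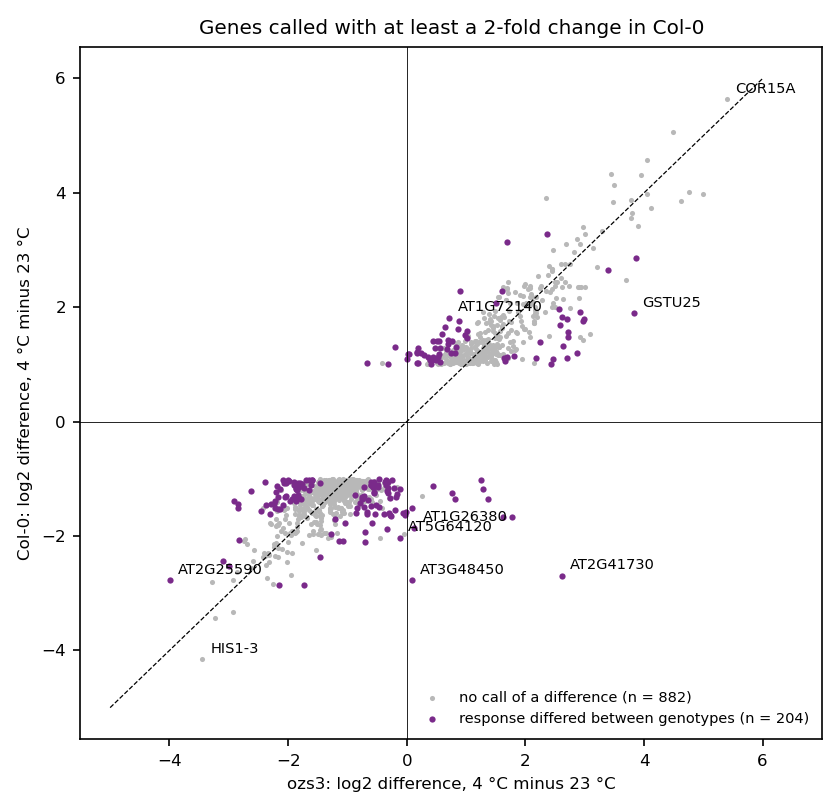
Cold response in Col-0 (y axis) against that in ozs3 (x axis), both as log2 differences 4 °C minus 23 °C, for the genes called with at least a 2-fold change in Col-0, with purple points where the responses differed between genotypes and a dashed line of equal change. The gap across the middle comes from the choice of genes. AT2G41730 lies alone at the lower right, falling in Col-0 and rising in ozs3.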

How the data were processed

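Affymetrix ATH1 arrays were hybridised with root RNA of 3 biological replicates per genotype and temperature. The deposited values are log2 intensities made with RMA, per the submitters' processing notes, which name no version. The table holds 22810 probe sets. After removal of 64 array controls, 22746 were fitted with limma 3.58.1 in R 4.3.3 as group means over all 12 arrays, with Benjamini-Hochberg adjustment over all probe sets. The genotype difference is Col-0 minus ozs3 response. Where a gene had several probe sets (146 genes), the brightest on average stood for it, and 1 gene had probe sets called in opposite directions. Of the probe sets, 13513 name 1 gene, 503 several and 8730 none. Arrays give no read depth, and their number limits the precision.

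The members and gene lists were chosen with earlier results of these data known. The text names the 15 largest called rises and falls whose arrays do not overlap, up to 5 genes per list, and the 5 genes with the highest mean. Other genes were chosen after their values were seen. Same-numbered Col-0 arrays deviated together (r = 0.195, 0.249 and 0.273), so the replicate numbers may pair the arrays. The main fit held no replicate block, so its calls and p-values do not use this pairing. A fit with the block is given in the closing section. No batch is labelled. P-values set a difference against the spread between replicates, which limma estimated over all 4 groups and drew towards a value shared by the probe sets. The fit was tested on simulated data. Promoter sequences were not used here.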

Additional observations from a re-analysis of the deposited data

Results flagged for a closer look

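Among the 270 genes named here or by the rule, 47 had a cold response that differed between Col-0 and ozs3 by the limma interaction test at an adjusted p under 0.05. Over all named genes the share was 9.43%. Many of the 270 were picked by the size of their change in Col-0, so part of a gap to ozs3 can come from that choice. Groups of 3 arrays are too small for a test of single arrays that stand apart. The value in parentheses is the Col-0 response minus the ozs3 response on the log2 scale.

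It was negative for 26 genes: AT2G41730 (-5.31), AT3G48450 (-2.86), AT1G26380 (-1.98), GSTU25 (-1.94), AT5G64120 (-1.91), OSM34 (-1.58), AT2G37810 (-1.54), AT5G64110 (-1.53), AT5G51440 (-1.40), AT4G31020 (-1.12), WRKY6 (-1.05), AT5G38950 (-1.03), LEA4-5 (-1.01), PUB19 (-0.90), PUB22 (-0.88), PDF1.4 (-0.84), AT4G20830 (-0.75), EXLA2 (-0.74), AT5G45310 (-0.71), AGL18 (-0.69), TET5 (-0.64), PWD AT4G24450 (-0.58), CSLC04 (-0.57), bZIP44 (-0.54), AT5G47600 (-0.51) and ELC (-0.46). The neighbouring peroxidases AT5G64110 and AT5G64120 changed by -1.59 and -2.03 in Col-0, and by -0.06 and -0.11 in ozs3. WRKY6 rose by 0.72 in Col-0 and by 1.77 in ozs3, and GSTU25 rose by 1.89 in Col-0 and by 3.83 in ozs3.

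It was positive for 21 genes: MSRB5 (1.88), AT5G62340 (1.71), AT4G29690 (1.46), AT2G25590 (1.23), AT3G45700 (1.15), AT1G72140 (1.1), AT4G29700 (1.01), GFAT (0.96), HTB11 (0.93), AT3G57010 (0.92), NRPB9B (0.75), SAPX (0.74), AT5G46040 (0.74), ATERDJ2B (0.74), TBL28 (0.73), AT5G62350 (0.68), AT4G30660 (0.65), BGLU42 (0.59), NDC1 (0.57), MMT (0.54) and SIM (0.52). The neighbours AT4G29690 and AT4G29700 rose by 3.15 and 1.66 in Col-0 and by 1.68 and 0.65 in ozs3. SAPX rose by 0.94 in Col-0 and stood at 0.20 in ozs3.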

How the results depend on the processing

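Of 22746 probe sets 9987 were called, and between 9035 and 9310 when 1 Col-0 array was left out. Changes of at least 2-fold numbered 1992, between 1935 and 2057 with 1 array left out, and 688 when limma's treat tested for a change above 2-fold. Genotype differences numbered 2300, and between 1575 and 1893 with 1 array left out. A replicate block gave 10786 calls, 1999 of at least 2-fold. It gave 3379 genotype differences and 459 called list members, against 425 without it, and changed no other named call than that of AT5G66985. In all, 15 alternatives were run, and 270 genes were followed over those other than the treat test. Of these genes 258 kept their call under each and 12 did not. Differences of uncalled genes changed sign for PRK (-0.308 to 0.031 with 1 array left out), EXPA7 (-0.239 to 0.0652) and AT5G45960 (-0.146 to 0.0854, and -0.0068 with quantile normalization repeated and -0.031 with array weights). The causes were not tested. Of 1202 list counts 42 moved by more than 1.5 times, each to 5 genes or fewer. The WRKY count of higher genes was 1 without replicate 1 or 3 at 23 °C or replicate 2 or 3 at 4 °C. With 1 common median the share of higher calls was 52.4%, against 46.6%. The comparisons of promoter motifs were not run. Weak signal limits 4227 genes dim at both temperatures, of which 211 were called.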
